A study of Mus musculus with 6 samples.

Results

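The genes described here are 10 members of the JAK-STAT5 pathway and its feedback arm in mouse acute myeloid leukemia, namely Jak2, Stat3, Stat5a, Stat5b, Cish, Socs1, Socs2, Socs3, Pim1 and Pim2. They were chosen by name, and each was found once among the 55421 genes of the deposited count table. RNA sequencing had been performed on leukemia cells from bone marrow of C57BL/6 mice. In both groups, c-Kit+ blood stem and progenitor cells had been given AML1-ETO9a (AE9a), a shortened AML1-ETO fusion protein. The retrovirus used also marks cells with GFP, and irradiated recipient mice had then developed leukemia. GFP+ leukemia cells were also passed on to sublethally irradiated recipients. For their established AE9a model, the authors name third-generation transplanted mice as the source of cells for RNA sequencing. Whether this holds for the 2 groups described here is not given. The 2 groups of 3 libraries each differed in the donors of the c-Kit+ cells. These donors were wild type (AE9a-Ddit4+/+) or lacked Ddit4, an inhibitor of mTOR that cells induce under stress (AE9a-Ddit4-/-). Sublethally irradiated recipients keep blood and stromal cells of their own. Whether GFP+ cells were sorted before the RNA was taken is likewise not given. The labels give no age for the animals and do not say which part of Ddit4 the allele lacks. They also do not say if the 3 libraries within a group represent separate mice or leukemias. Within the time of observation, the authors report fewer primary AE9a-Ddit4-/- leukemias than there are knockout libraries here. Some knockout libraries may therefore stem from the same primary leukemia, which was not tested. For these reasons n counts libraries, and p values measure the spread between these libraries only.

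In the JAK-STAT pathway, a cytokine brings its receptor chains together, and the Janus kinases bound to them phosphorylate STAT proteins, which pair up, enter the nucleus and bind DNA. JAK2 serves the receptors for erythropoietin, IL-3 and GM-CSF, and STAT5A and STAT5B are its main STAT targets in blood precursors. CISH and the SOCS proteins are induced by STATs and shut the signal off again, and the PIM kinases are STAT-induced promoters of survival and growth. In leukemia cells this loop is often read through the transcripts of its target genes, although transcript levels do not show whether a kinase or STAT is active.

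The 6 libraries held between 62141558 and 72717681 counts each, and the lowest count of any of the 10 genes in any library was 92. Ddit4 itself was at 228, 161 and 342 CPM (counts per 1000000 of a library's TMM-scaled total) in wild type and at 84.9, 77.7 and 85.9 CPM in knockout, and its log2 fold change, knockout over wild type as throughout, was -1.56 with an SE of 0.28 (edgeR adjusted p 0.00635). At the protein level, the authors report by western blot that DDIT4 was absent from AE9a-Ddit4-/- leukemia cells. Mitochondrial genes took 5.03% to 7.90% of the counts in wild type and 11.3% to 16.4% in knockout. Kit and Cd34, markers of leukemic progenitors, were present at low levels in wild type (means 24.7 and 5.92 CPM) and higher in knockout (411 and 519 CPM). Runx1t1, which encodes ETO, had means of 11.9 and 139 CPM, and whether its counts include the fusion transcript was not tested. Of the 6 genes in this check, 5 were higher and 0 lower, against 19.4% and 10.7% of all genes tested. The Y-linked gene Ddx3y was at 88.2 to 125 CPM in knockout and at most 0.0774 CPM in wild type libraries, and Xist was at 20.3 to 129 and at 566 to 1032 CPM, so genotype and sex of the cells cannot be told apart in any comparison below.

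Of the 10 genes, 7 passed the quasi-likelihood test of edgeR (adjusted p below 0.05 over all genes), against a background of 30.1% of the 18375 genes tested. The 10 genes were chosen with earlier results of these data known, which the comparisons with the background do not allow for. Pim2, Socs1, Pim1 and Stat5a were higher in AE9a-Ddit4-/- cells (4 of 10, background 19.4%), and Socs2, Cish and Jak2 were lower (3 of 10, background 10.7%). Socs3, Stat3 and Stat5b did not pass. The feedback inhibitors thus did not move as a block, since Cish and Socs2 fell while Socs1 rose. In bulk RNA such as this, fewer cells that express a gene and less RNA per cell cannot be told apart. The libraries of the groups did not overlap for 8 of the 10 genes, against 50.1% of all genes tested (5 with knockout higher, background 27.9%, and 3 with knockout lower, background 22.2%). An unadjusted p below 0.05 was reached by 8 of them, against 42.4% of all genes tested. The median absolute log2 fold change was 1.41 over the 10 genes and 0.75 over all genes tested, and the signed medians were 0.38 and 0.04. Among the 9914 genes tested with an average level at or above that of the lowest of the 10, 32.7% passed.

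**Figure D1:**
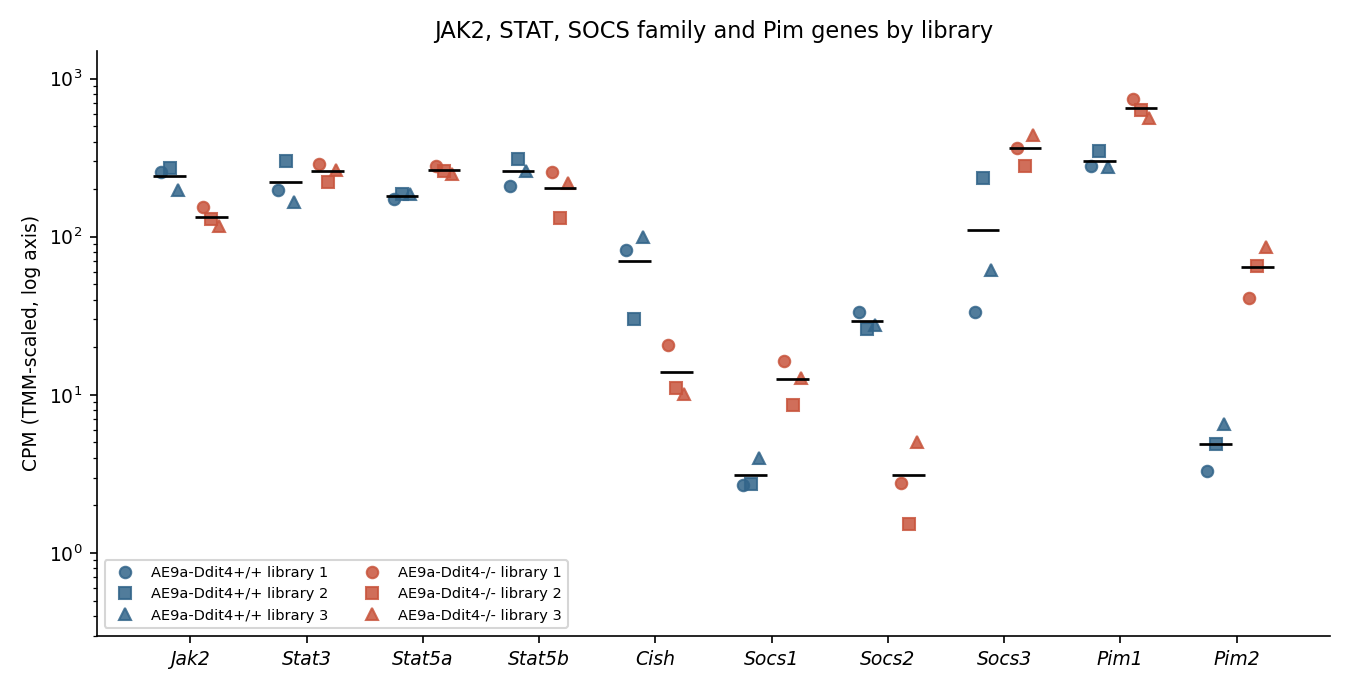
Level of each of the 10 genes in each library, in CPM on a log axis, with AE9a-Ddit4+/+ libraries in blue, AE9a-Ddit4-/- libraries in red and group means as black lines (n = 3 each). Pim2 lay between 3.28 and 6.50 CPM in wild type and between 41.1 and 86.2 CPM in knockout, while Socs2 fell from at least 26.2 to at most 5.06 CPM.

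Jak2 encodes the kinase at the head of the pathway (ENSMUSG00000024789, chromosome 19, 29251828 to 29313080, plus strand, GRCm38). It was at 256, 271 and 199 CPM in wild type and at 155, 130.3 and 117 CPM in knockout. The groups did not overlap, with each knockout library on the lower side. Mean levels were 242 ± 38.1 and 134 ± 19.4 CPM (SD, n = 3 each), and Jak2 fell by 0.85 on the log2 scale (SE 0.20, edgeR adjusted p 0.0168), or 1.80-fold. Without AE9a-Ddit4+/+ library 1 the change was -0.81 and no longer passed (adjusted p 0.0525).

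The 3 STAT genes are neighbors on chromosome 11. Stat5b (ENSMUSG00000020919, 100780731 to 100850724, minus strand) and Stat5a (ENSMUSG00000004043, 100859351 to 100885169, plus strand) point away from each other with 8626 bases between them, and Stat3 (ENSMUSG00000004040, 100885098 to 100939540, minus strand) overlaps the end of Stat5a by 72 bases. Stat5a was at 174, 185 and 186 CPM in wild type and at 279, 259 and 249.6 CPM in knockout. It was the least variable of the 10 genes within the groups, and the groups were apart by more than this spread. Stat5a rose by 0.53 on the log2 scale (SE 0.16, edgeR adjusted p 0.0373), or 1.45-fold. This call was at the edge of the threshold and was lost whichever of the 6 libraries was left out, with changes of 0.49 to 0.55 and adjusted p values of 0.0591 to 0.108.

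Stat5b was at 210.4, 312 and 262 CPM in wild type and at 257, 130.6 and 219 CPM in knockout. The groups overlapped, with AE9a-Ddit4-/- library 2 lowest. The log2 fold change was -0.37, with a 95% interval of -1.03 to 0.29 (edgeR adjusted p 0.362). Stat3, the STAT of the IL-6 and G-CSF receptors, was at 199, 300.3 and 165 CPM in wild type and at 290.2, 223 and 265 CPM in knockout. These groups overlapped as well, and the log2 fold change was 0.23, with an interval of -0.36 to 0.82 (edgeR adjusted p 0.534). With 1 library left out, the values ran from -0.58 to -0.18 for Stat5b and from 0.05 to 0.51 for Stat3, and neither gene passed in any of these fits.

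STAT5A and STAT5B are closely related proteins with many targets in common, and their genes share sequence, so reads may have been split between them. Stat5a took 45.2%, 37.3% and 41.5% of the summed Stat5a and Stat5b counts in the wild-type libraries and 52.03%, 66.5% and 53.3% in the knockout libraries. Each knockout library lay above each wild-type library in this share. The difference was 15.9 percentage points (41.3% ± 3.98 against 57.3% ± 8.03, SD, n = 3 each), and the exact two-sided permutation test gave p = 0.1, below which 3 against 3 cannot go. With the counts of both genes summed, the change was 0.070 on the log2 scale (SE 0.19, edgeR adjusted p 0.814), so the sum of the pair did not pass. Of the 20 other genes tested within 200 kb of the 3 STAT genes, 4 were higher and 2 lower, close to the background of 19.4% and 10.7% of all genes.

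**Figure D2:**
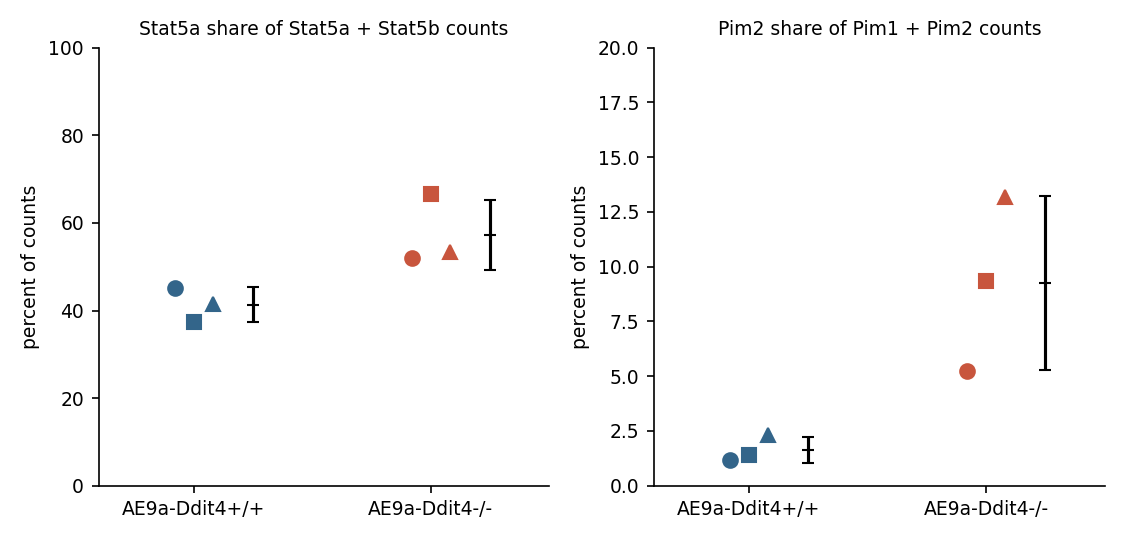
Share of Stat5a in the summed Stat5a and Stat5b counts (left) and of Pim2 in the summed Pim1 and Pim2 counts (right), in percent, per library with mean and SD beside the points (n = 3 each). The groups do not overlap in either panel, and the means are 41.3% and 57.3% for Stat5a and 1.62% and 9.26% for Pim2.

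Cish encodes CIS, which binds phosphorylated receptors and blocks STAT5 docking, and it is a classical STAT5 target (ENSMUSG00000032578, chromosome 9, 107296026 to 107302784, plus strand). Its level was 82.9, 30.2 and 99.0 CPM in wild type and 20.5, 11.05 and 10.1 CPM in knockout. The groups did not overlap, although AE9a-Ddit4+/+ library 2 was close to the highest knockout library. Cish fell by 2.35 on the log2 scale (SE 0.49, edgeR adjusted p 0.0108), or 5.09-fold, with means of 70.7 ± 36.0 and 13.9 ± 5.77 CPM.

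Socs2, also a STAT5 target and best known as a brake on growth hormone signaling, lies on chromosome 10 (ENSMUSG00000020027, 95385362 to 95417180, minus strand). It was at 33.6, 26.2 and 27.7 CPM in wild type and at 2.76, 1.51 and 5.06 CPM in knockout. The wild-type libraries lay close together and far above each knockout library. Socs2 fell by 3.22 on the log2 scale (SE 0.46, edgeR adjusted p 0.00276), or 9.34-fold, the largest decrease among the 10 genes, and it stayed past the threshold in each alternative fit.

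Socs1, an inhibitor of JAK kinases that is induced by interferons and by STAT5, went the other way (ENSMUSG00000038037, chromosome 16, 10782240 to 10785536, minus strand). It was at 2.69, 2.73 and 3.98 CPM in wild type and at 16.4, 8.59 and 12.7 CPM in knockout, again without overlap. Socs1 rose by 2.005 on the log2 scale (SE 0.38, edgeR adjusted p 0.00720), or 4.01-fold. The median log2 fold change of well-measured genes (log2 CPM over 4 on average) lay 0.42 higher on chromosome 16 than over all such genes. On the other chromosomes that hold one of the 10 genes, this distance ran from -0.13 on the X chromosome to 0.015 on chromosome 17.

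Socs3, the inhibitor of IL-6 family and G-CSF receptor signaling (ENSMUSG00000053113, chromosome 11, 117966079 to 117970047, minus strand), was at 33.4, 236 and 61.8 CPM in wild type and at 364, 281 and 443 CPM in knockout. The groups did not overlap, but AE9a-Ddit4+/+ library 2 lay near the knockout libraries and apart from the other two of its group. The log2 fold change was 1.72, with a 95% interval of 0.17 to 3.27, and did not pass (edgeR adjusted p 0.0893). This outcome turned on 1 library and on the tool. Without AE9a-Ddit4+/+ library 2 the change was 2.93 and passed (adjusted p 0.00232). It passed also with the DESeq2 Wald test (1.73, adjusted p 0.0225) and limma voom (2.18, adjusted p 0.0243).

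STAT dimers bind the palindrome TTCNNNGAA, which reads the same on both strands. RefSeq promoter windows on GRCm38.p6 were at hand for 9 of the 10 genes, and 1 of these genes held the motif in the 250 bases before a start, which is 1 of their 12 windows, against 7.02% of the 32851 windows of all genes. This was Socs3, whose window is shown since it is the one with a match (chr11:117969367-117969616, minus strand, the match in capitals at bases 154 to 146 before the start, chr11:117969512-117969520):
Socs3: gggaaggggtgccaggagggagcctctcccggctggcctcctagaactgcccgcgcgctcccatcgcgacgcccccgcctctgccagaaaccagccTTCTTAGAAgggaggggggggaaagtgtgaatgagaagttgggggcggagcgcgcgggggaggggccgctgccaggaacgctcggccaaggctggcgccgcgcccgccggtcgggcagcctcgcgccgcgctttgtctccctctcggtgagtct
A match is a description of letters, not a binding site. The window lies inside the Socs3 gene of GENCODE, which has a non-coding transcript that starts further upstream. Of the 12 windows, 6 held bases from the untranslated part of an annotated transcript of the same gene. These were 175 and 139 bases for Stat5a, 143 for Stat5b, 32 and 48 for Pim1, and all 250 for Cish. The Cish transcript starts further upstream, so other start sites were not covered.

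Pim1 and Pim2 encode serine/threonine kinases that keep cells alive downstream of STAT5 and STAT3. Pim1 (ENSMUSG00000024014, chromosome 17, 29490753 to 29496112, plus strand) was at 279, 346 and 275 CPM in wild type and at 741, 634 and 567.5 CPM in knockout. No library of one group came near the other group. Pim1 rose by 1.11 on the log2 scale (SE 0.19, edgeR adjusted p 0.00501), or 2.16-fold, with means of 300.1 ± 40.1 and 647 ± 87.6 CPM. It overlaps the antisense gene Gm26885, which had 753 to 2124 counts in a library, and since the sources used here do not say if strand was used in counting, some Pim1 counts could belong to it.

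Pim2 (ENSMUSG00000031155, X chromosome, 7878262 to 7883432, plus strand) was at 3.28, 4.92 and 6.50 CPM in wild type and at 41.1, 65.4 and 86.2 CPM in knockout. It rose by 3.71 on the log2 scale (SE 0.39, edgeR adjusted p 0.000892), or 13.1-fold, the largest change of the 10 genes in either direction. Pim2 made up 1.16%, 1.40% and 2.31% of the summed Pim1 and Pim2 counts in wild type and 5.25%, 9.35% and 13.2% in knockout, a difference of 7.64 percentage points (exact two-sided permutation p = 0.1, n = 3 each). The share of Pim2 was thus higher in each knockout library than in any wild-type library. Over the 6 libraries, which form 2 separate groups, the genes tested with the level pattern most like that of Pim2 were Tapbpl, Mc5r, Ppm1j, Arhgap6 and Gm44428 (Pearson r of log2 CPM 0.994 to 0.999, given as a description).

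**Figure D3:**
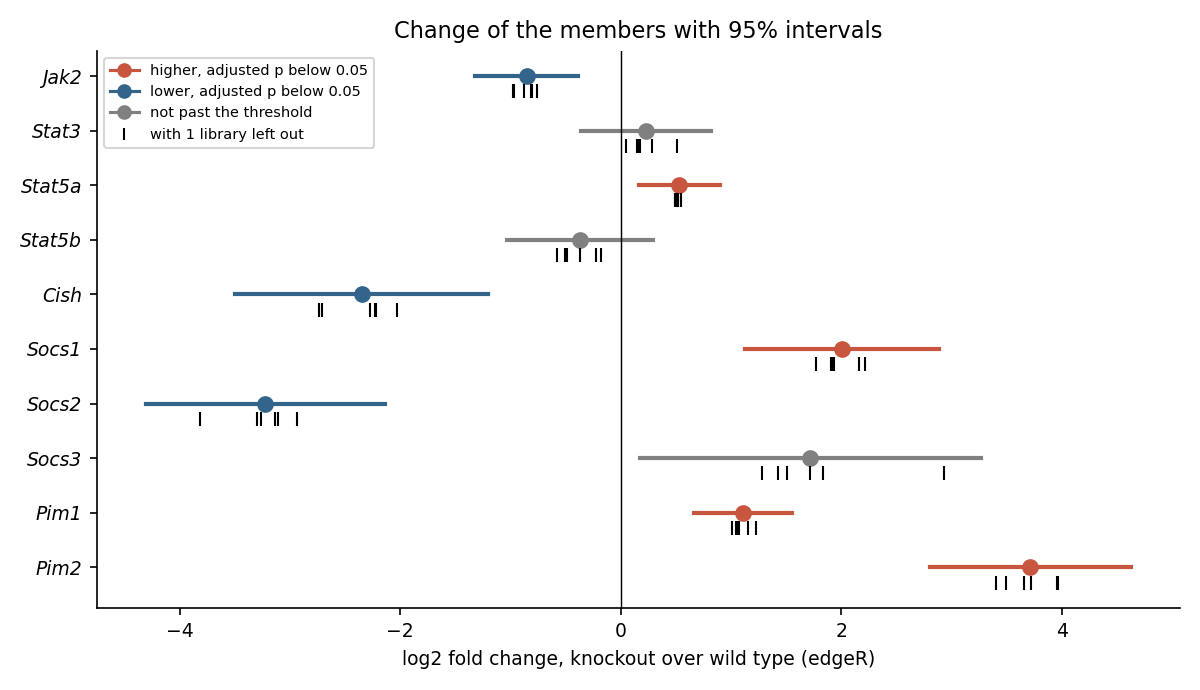
Log2 fold change of each of the 10 genes, knockout over wild type, from edgeR, with 95% intervals as bars and the values with 1 library left out as ticks below. Genes past an adjusted p of 0.05 are red (higher) or blue (lower) and the others are grey. The ticks of Socs3 run from 1.28 to 2.93, the widest of the 10, and no gene's ticks cross 0.

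Compared per kilobase of annotated exon, so that genes of different length can be set side by side, Pim1 had the highest level of the 10 genes in both groups (89.3 ± 11.9 CPM per kb in wild type and 193 ± 26.1 in knockout, SD, n = 3 each). In wild type, Jak2 and Stat5b followed at 48.1 ± 7.58 and 47.2 ± 9.19, and Socs3, Stat5a and Stat3 at 38.1 ± 37.9, 25.5 ± 0.973 and 23.2 ± 7.39, with overlapping ranges between each neighboring pair from Jak2 to Stat3. Below them by mean came Cish at 11.01 ± 5.61, Socs2 at 3.06 ± 0.410, Pim2 at 1.75 ± 0.576 and Socs1 at 1.08 ± 0.252. Among these, only Pim2 and Socs1 overlapped, but the range of Cish (4.71 to 15.4) reached into that of Socs3 (11.5 to 81.5). In knockout the order of the 4 SOCS family genes was Socs3 (125.5 ± 27.9), Socs1 (4.32 ± 1.34), Cish (2.16 ± 0.899) and Socs2 (0.326 ± 0.189), with overlap between Socs1 and Cish. Socs2 went from the eighth to the last place and Pim2 from the ninth to the seventh. The level of Pim2 in knockout, 23.0 ± 8.08 CPM per kb, overlapped that of Jak2 at 26.7 ± 3.86.

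The wild-type libraries differed among themselves most in Socs3 and Cish among the 10 genes. The highest wild-type library exceeded the lowest 7.06-fold for Socs3 and 3.28-fold for Cish, against 1.07-fold for Stat5a and 1.98-fold for Pim2, the lowest and the highest of the other genes. AE9a-Ddit4+/+ library 2 was the highest of its group for Jak2, Stat3, Stat5b, Socs3 and Pim1, and the lowest for Cish and Socs2. Among the knockout libraries, library 1 was the highest for 7 of the 10 genes and library 2 for none of them. Socs2 had the widest range in knockout, 3.34-fold.

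Markers of several cell types also differed between the groups, and which cells their RNA came from was not tested. The counts called are to be read against the background of 19.4% of all genes higher and 10.7% lower. Of 17 erythroid markers tested, 13 were lower in knockout, and their summed level was 8374 to 17123 CPM in wild type and 672 to 1213 CPM in knockout. AE9a-Ddit4+/+ library 2, the lowest of its group for Cish and Socs2, was also the lowest of its group in this sum. The knockout libraries did not follow one order. The sum was highest in library 1 and lowest in library 2, Cish highest in 1 and lowest in 3, and Socs2 highest in 3 and lowest in 2. Of 17 T and NK cell markers tested, 15 were higher, with sums of 13.0 to 84.6 and 197 to 294 CPM, and of 10 B cell markers tested, 8 were higher, with sums of 7.91 to 140.1 and 411 to 965 CPM. In wild type Trac, Klrb1c, Ncr1, Ms4a1, Emcn and Tpsb2 had 0 counts, and Rag1 and Tpsab1 had 0 counts in all libraries. In each wild-type library, 8 of the 18 T and NK cell markers listed and 4 of the 12 B cell markers were at or under 12 counts. So were 3 of 12 stroma and endothelium, 3 of 12 mast cell, basophil and eosinophil and 1 of 12 megakaryocyte and platelet markers. Those of them that were tested could only be called higher. Of 11 megakaryocyte and platelet markers tested, 9 were higher and 1 lower, with sums of 430.2 to 608 and 3147 to 4000.2 CPM. Of 11 stroma and endothelium markers tested, 7 were higher, with sums of 6.98 to 12.5 and 349 to 355 CPM, and of 8 mast cell, basophil and eosinophil markers tested, 3 were higher, with sums of 119 to 142 and 687 to 1247 CPM. Of 12 monocyte and macrophage markers tested, 2 were higher, against the background of 19.4% of all genes, and their sums overlapped (713 to 1146 and 362 to 1291 CPM). Of 16 neutrophil markers 5 were lower and 1 higher, with sums of 7937 to 13179 and 2132 to 5853 CPM. The part of these cell types, or of the mitochondrial share, in the changes of the 10 genes was not tested.

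The rest of the pathway was read from 5 lists of genes, also chosen with earlier results of these data known. Without the 10 genes above, 69 of their genes were tested, of which 31 were higher and 2 lower, to be read against the background of 19.4% and 10.7% of all genes. Some of the receptor and ligand genes tested were at or under 12 counts in each wild-type library and could only be called higher.

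Of 15 ligand genes, 7 were at or under 12 counts in each wild-type library, and Il3 had 0 counts in all libraries. The edgeR test covered 8 of them, with 4 higher and 0 lower and a median log2 fold change of 1.81, and Epo was the 1 ligand that was lower at an unadjusted p under 0.05 and in DESeq2, while limma voom called 0. Osm encodes oncostatin M, an IL-6 family cytokine and STAT5 target, and was at 33.0, 89.2 and 70.2 CPM in wild type and at 585, 437 and 499 CPM in knockout. It rose by 2.98 on the log2 scale (SE 0.37, edgeR adjusted p 0.00162). Lif, of the same family, rose by 3.19 (edgeR adjusted p 0.00292) and Flt3l, the ligand of FLT3, by 1.45 (edgeR adjusted p 0.00231). Epo and Csf3, which encode erythropoietin and G-CSF, had changes of -1.67 and 0.65 that did not pass (edgeR adjusted p 0.108 and 0.554).

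Of 21 receptor genes that use JAK2 or STAT5, 20 were tested, of which 11 were higher and 1 lower, with a median log2 fold change of 1.44. In each wild-type library, 4 of the 21 were at or under 12 counts. Such genes enter the test only through their knockout counts, so only a call of higher was open to them. Epor, the erythropoietin receptor, which signals through JAK2 and STAT5, was at 81.5, 70.9 and 99.0 CPM in wild type and at 9.62, 5.40 and 9.98 CPM in knockout. It fell by 3.33 on the log2 scale (SE 0.31, edgeR adjusted p 0.000580). Csf3r, the G-CSF receptor, was at 31.7, 57.8 and 30.6 CPM in wild type and at 139.99, 154 and 181 CPM in knockout, and rose by 1.98 on the log2 scale (SE 0.29, edgeR adjusted p 0.00297). Epor and Csf3r also belong to the erythroid and neutrophil marker lists given above. Kit, the stem cell factor receptor, rose by 4.06 (edgeR adjusted p 0.000550), and Il2rg, the common gamma chain that works with JAK3, rose by 1.87 (edgeR adjusted p 0.00776). Csf2rb, the beta chain shared by the IL-3, IL-5 and GM-CSF receptors, and Csf2rb2, the beta chain particular to the mouse IL-3 receptor, had changes of -0.27 and -0.88 that did not pass (edgeR adjusted p 0.486 and 0.252).

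Among the other JAK kinases and STATs, 3 of 7 were higher and 0 lower by edgeR, with a median log2 fold change of 0.45. Jak1 was the 1 gene of them on the lower side with an unadjusted p under 0.05, and DESeq2 and limma voom called 0 lower. Jak3, the lymphoid kinase of the common gamma chain, was at 15.5, 24.99 and 11.9 CPM in wild type and at 298, 290.2 and 266 CPM in knockout. It rose by 4.03 on the log2 scale (SE 0.31, edgeR adjusted p 0.000352) while Jak2 fell. Stat4, which acts downstream of IL-12, rose by 4.48 (edgeR adjusted p 0.000553) and Tyk2 by 0.82 (edgeR adjusted p 0.0232). Jak1 and Stat6 had changes of -0.45 and -0.23 that did not pass (edgeR adjusted p 0.108 and 0.505).

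Of the 17 genes listed as other inhibitors, 5 were higher and 0 lower by edgeR, with a median log2 fold change of 0.29. The number lower was 0 also at an unadjusted p under 0.05, in DESeq2 and in limma voom. The list was not restricted to genes that act only as brakes. Ptprc, which encodes the phosphatase CD45, rose by 2.43 (edgeR adjusted p 0.00416), Ptpn6, which encodes the phosphatase SHP-1, by 0.94 (edgeR adjusted p 0.0202) and the SUMO ligase gene Pias4 by 0.95 (edgeR adjusted p 0.0335). Ptpn11, which encodes SHP-2, and Ptpn1 had changes of -0.48 and 0.15 that did not pass (edgeR adjusted p 0.134 and 0.599).

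Of 18 other genes known as STAT5 or STAT3 targets, 9 were higher and 1 lower, with a median log2 fold change of 1.05, and Osm, described among the ligands, is one of those higher. Pim3, the third Pim kinase, was at 33.8, 37.9 and 29.3 CPM in wild type and at 397, 236 and 169 CPM in knockout, and rose by 2.99 on the log2 scale (SE 0.34, edgeR adjusted p 0.00115). All Pim genes were therefore higher in knockout. Mcl1, a survival factor of the Bcl2 family, rose by 0.81 (edgeR adjusted p 0.0177). Ccnd2, which encodes cyclin D2, was at 184, 104 and 159 CPM in wild type and at 23.0, 18.3 and 27.8 CPM in knockout. It fell by 2.69 (SE 0.28, edgeR adjusted p 0.000898) and was the one gene of this list to share the direction of Cish and Socs2 past the threshold. Cdkn1a and Ccnd3 had changes of 1.35 and 0.42 that did not pass (edgeR adjusted p 0.0859 and 0.146).

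**Figure D4:**
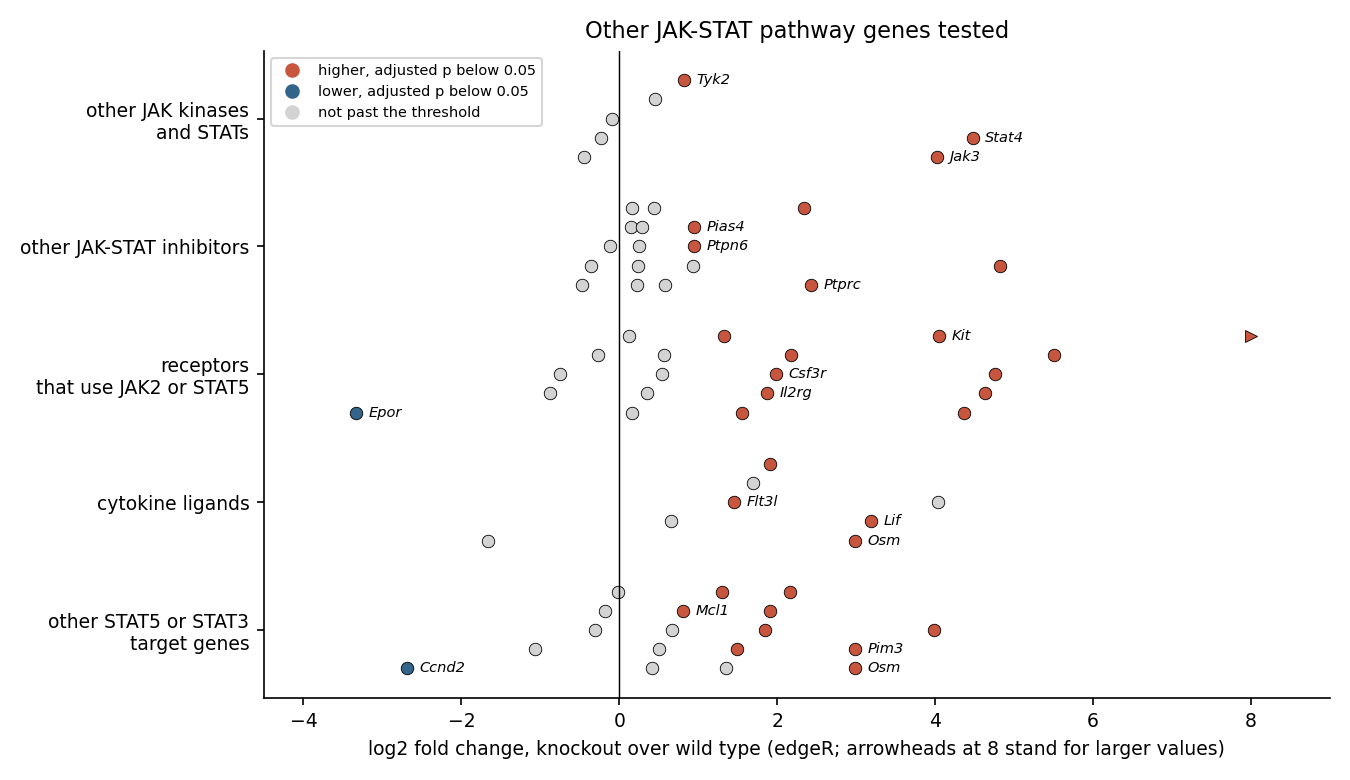
Log2 fold change, knockout over wild type, of each gene tested in the 5 pathway lists, with genes past an adjusted p of 0.05 in red (higher) or blue (lower). An arrowhead stands for a value beyond the axis, and the genes named are the most abundant of each list past the threshold. Epor and Ccnd2 are the 2 genes on the lower side past the threshold.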

How the data were processed

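RNA of leukemia cells from 3 AE9a-Ddit4+/+ and 3 AE9a-Ddit4-/- samples was sequenced by the authors as paired reads of 150 bp. The authors deposited 1 table of counts per gene with a column per library. The sample labels name an mRNA kit and the methods a directional kit for rRNA-depleted RNA. The processing notes list GRCm38, and aligner, counting tool, annotation and use of strand are not given in the sources used here. Low values piled up at multiples of 4 (1.40 to 1.62 times as frequent as 2, 6 and 10), so a count need not be 1 fragment, and 12 counts (0.163 to 0.198 CPM) were taken as the limit of detection. This limit covers counting error only.

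Groups came from the sample titles. Genotypes were compared with edgeR 4.0.16 under R 4.3.3, by its quasi-likelihood test (filterByExpr, TMM factors, robust estimation, genotype as the only term) over all 18375 genes left by the filter, with Benjamini-Hochberg adjustment over all of them and a threshold of 0.05. SE is the absolute log2 fold change over the square root of F. The fit was tested on simulated data. DESeq2 1.42.0 and limma 3.58.1 were among 17 alternatives. Single values per library were compared with an exact two-sided permutation test. Positions and exon lengths are from GENCODE M21, which held 99.7% of the identifiers, and 27 symbols turned into dates were restored.

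The 10 genes and all lists were chosen with earlier results of these data known. Beside the 10 genes and Ddit4, the text names genes by rule. Per list these are the 3 most abundant past the threshold in each direction and the 2 most abundant that did not pass. It also names the 5 genes most like the member with the largest change, markers at 0 counts, and Kit, Cd34, Runx1t1, Ddx3y, Xist and Gm26885 as checks. One gene of the lists is not reported here, and all list counts leave it out.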

Additional observations from a re-analysis of the deposited data

How the results depend on the processing

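At an adjusted p of 0.05, Pim1, Pim2, Socs1, Socs2, Cish and Ddit4 passed in the same direction in all 15 fits tried for each, leave-outs included, and Stat3 and Stat5b passed in none of theirs. Stat5a was at 0.47 with library totals alone as the scaling, 0.50 without the low-count filter and 0.070 when summed with Stat5b (Stat5b, summed likewise, thus turned to 0.070), each short of the threshold, and at 0.49 to 0.55 with 1 library left out. Jak2 ran from -0.98 to -0.76 with 1 library left out. Socs3 passed with DESeq2 (1.73) and limma voom (2.18), and ran from 1.28 to 2.93 with 1 library left out. At an adjusted p below 0.01, 1 of the 10 genes was lower, 1964 of all genes were higher and 712 lower, and 19 pathway list genes were higher. With at least 10 counts in every library, 2341 genes were higher. With 1 library left out, 1089 to 2078 genes were lower (1168 without AE9a-Ddit4+/+ library 1, 1089 without library 3 and 1157 without AE9a-Ddit4-/- library 1). The replicate numbers share only a number, since same-numbered libraries deviated with correlations of -0.17, -0.19 and -0.05 and none correlated best with its own number. With the replicate block, 2177 genes were higher and 787 lower, 19 pathway list genes were higher, Stat5a was at 0.53 (edgeR adjusted p 0.135) and Jak2 at -0.85 (edgeR adjusted p 0.0509). The causes were not tested. The biological coefficient of variation between libraries was 0.433. Depth limits what can be said of genes at or under 12 counts. In wild type these include 7 of 15 ligand genes and 4 of 21 receptor genes, and none of the 10 genes described.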
